A study of Danio rerio with 12 samples.

Results

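This section describes 8 zebrafish genes that were lower in embryos with a disrupted etv2 gene and that stand outside the usual lists of vessel markers. They are shank3b, KLHL4, INPP5D, plk2b, pc, micall2a, ccdc88b and f13a1b, 8 of the 31172 gene rows in each of the study's tables, spelled as the files spell them. They were taken by gene symbol from a set of genes with lower values in homozygotes at the 15-somite stage or at both stages studied. No size of difference was set as a limit. Both genotype comparisons therefore chose these genes, and their own differences are given below as a description, with no test.

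The study measured RNA by sequencing in whole embryos that carry etv2^Gt(2A-Gal4)ci32, a knock-in that places a Gal4 cassette at etv2. Homozygous embryos carry 2 copies of the allele and heterozygous embryos carry 1 copy, so the heterozygotes are not wild type, and no embryo without the allele is part of the comparison. The parents were incrossed carriers with the UAS:GFP reporter, and each library is a batch of 15 to 20 embryos sorted by GFP pattern and frozen. There were 3 homozygous and 3 heterozygous libraries at the 15-somite stage, from embryos raised at 24 °C, and 3 homozygous and 3 heterozygous libraries at 24 hpf (hours post fertilization), from embryos raised at 28 °C. Homozygous libraries at the 15-somite stage are called replicates 2, a and b, because 2 columns carry the same name.

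Etv2 is an ETS-family transcription factor that switches on the endothelial programme in early mesoderm, with roles in early blood lineages as well. Zebrafish without a working copy form few functional vessels. The 8 genes are not a pathway: they encode scaffold and adaptor proteins, a lipid phosphatase, a kinase and enzymes of metabolism and clotting. In whole-embryo RNA, fewer cells of a type and less RNA per cell cannot be told apart.

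In the deposited log2 numbers the row's median had been taken off, so levels cannot be compared between genes. Below, a library's level is a percentage of the gene's heterozygous geometric mean (n = 3) at that stage. A difference is the homozygous mean minus the heterozygous mean, in log2 units, with a standard error (SE) from limma and n = 3 libraries per genotype. Total depth is unknown. From the steps between low values, relative depth spanned 0.909 to 1.135 (15-somite stage) and 0.965 to 1.063 (24 hpf).

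The targeted gene, etv2 (ENSDARG00000053868), stood at 16.3%, 13.3% and 12.9% in homozygous replicates 2, a and b at the 15-somite stage, against 96.7% to 105.8% in heterozygous libraries. At 24 hpf it stood at 7.4% to 14.0% in homozygous libraries and 99.2% to 101.2% in heterozygous libraries. The genotype labels and the level of etv2 thus matched in all 12 libraries. None of the 8 genes lies on the chromosome of etv2 in the RefSeq annotation of GRCz12tu, where all 8 were found by name. The symbol pc is there an older name of pcxb.

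All 8 genes passed the study-wide call at the 15-somite stage (limma, adjusted p below 0.05), where 3.86% of 18168 rows tested passed in the lower direction. Every homozygous library lay below every heterozygous library for all 8, as it did for 15.7% of rows. At 24 hpf 4 of the 8 passed, micall2a, INPP5D, ccdc88b and f13a1b, where 0.302% of 18883 rows did. At that stage the groups were separate in 6 of the 8 and in 6.42% of rows. These counts follow from how the genes were chosen, and without single libraries 4 to 7 passed early and 1 or 2 late. The median difference of the 8 genes was -2.21 at the earlier stage and -1.10 at the later one, and the median of all rows tested was 0.003 and 0.002.

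**Figure D1:**
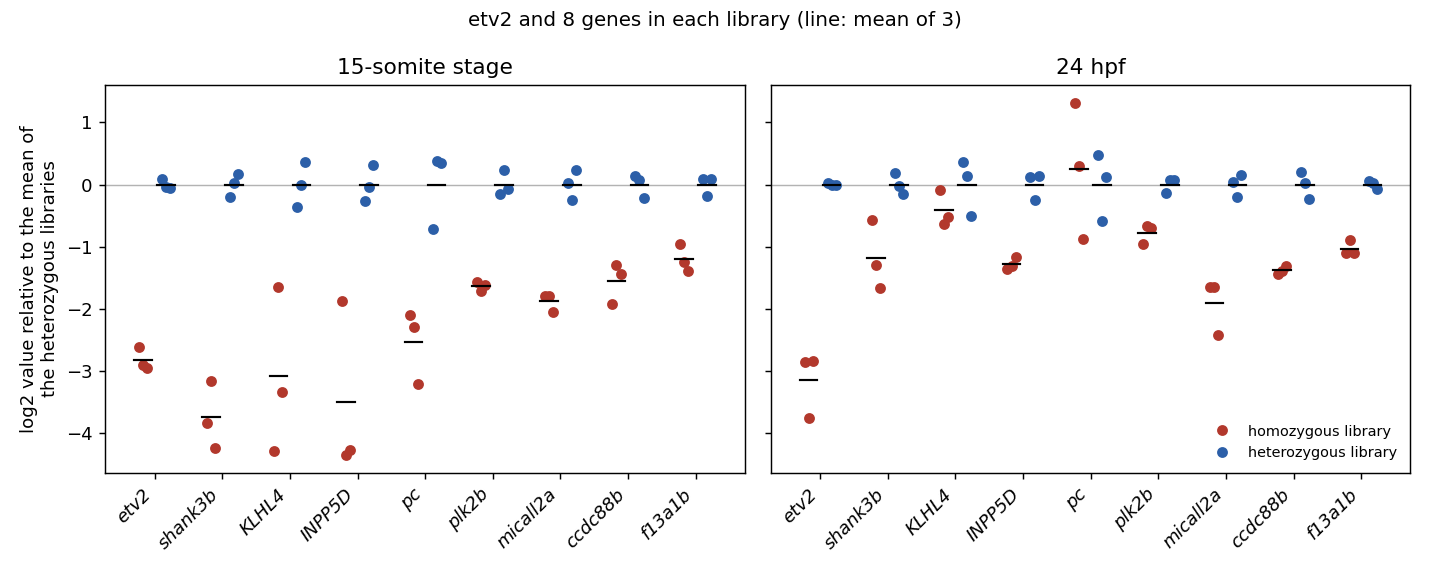
Each point is 1 library, as a log2 value relative to its stage's heterozygous mean (y axis), for etv2 and the 8 genes (x axis); homozygous libraries are red and stand left of the blue heterozygous ones, and lines are means of 3. At the 15-somite stage the 2 colours are separate for every gene shown, whereas at 24 hpf they overlap for KLHL4 and pc.

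The first 3 genes had the largest differences at the 15-somite stage and much smaller ones at 24 hpf. The gene shank3b (ENSDARG00000063054) encodes a scaffold protein of the Shank family, known from the postsynaptic side of excitatory synapses; changes in human SHANK3 are linked to autism. It stood at 6.99%, 11.2% and 5.30% in homozygous replicates 2, a and b, and at 87.5%, 101.7% and 112.4% in heterozygous replicates 1, 2 and 3. The difference was -3.74 (SE 0.28), a 13.4-fold lower level, and the nearest homozygous and heterozygous libraries were 2.97 apart on the log2 scale. At 24 hpf shank3b stood at 67.5%, 40.7% and 31.5% in homozygous replicates 1, 2 and 3, and at 113.4%, 98% and 90.0% in heterozygous replicates. The groups were still separate, but homozygous replicate 1 was more than 2-fold above replicate 3, and the difference was -1.18 (SE 0.28). It had the largest difference of the 8 genes at the earlier stage and the fourth largest at the later one.

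KLHL4 (ENSDARG00000016531) encodes a kelch-like protein, of a family whose members often serve as substrate adaptors of cullin ubiquitin ligases. At the 15-somite stage it stood at 5.13%, 32.0% and 9.93% in homozygous replicates 2, a and b, and at 78.2%, 99.6% and 128.5% in heterozygous replicates 1, 2 and 3. All homozygous libraries were low, but they were spread over 2.64 on the log2 scale, against 0.72 among the heterozygous ones. The difference was -3.09 (SE 0.60), and it was -3.81 without homozygous replicate a and -2.49 without homozygous replicate 2. At 24 hpf KLHL4 stood at 94.0%, 64.7% and 69.3% in homozygous replicates and at 128.2%, 110.4% and 70.7% in heterozygous replicates. The groups overlapped there, and the difference was -0.42 (SE 0.26).

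INPP5D (ENSDARG00000074283) encodes an inositol phosphatase known in mammals as SHIP1, which acts in blood cells and removes the lipid product of PI3 kinases. At the 15-somite stage it stood at 27.2%, 4.88% and 5.15% in homozygous replicates 2, a and b, and at 83.3%, 96.9% and 123.9% in heterozygous replicates 1, 2 and 3. Replicate 2 stood more than 5-fold above the other homozygous libraries, which were close to each other. The difference was -3.50 (SE 0.62), and it was -4.32 without homozygous replicate 2. At 24 hpf INPP5D stood at 39.1%, 40.2% and 44.4% in homozygous replicates and at 108.6%, 84.0% and 109.7% in heterozygous replicates. The homozygous libraries were tightly grouped and separate from the heterozygous ones, with a difference of -1.28 (SE 0.17).

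Some homozygous libraries stood at low levels of these 3 genes, and only for INPP5D do the limits show very few reads. The stored precision of the deposited values gives an upper limit to the normalized value of some libraries, and the floor at 1 gives a lower limit. INPP5D lay between 1 and 2.87 normalized units in homozygous replicate a, between 1.05 and 3.03 in replicate b and between 5.57 and 16 in replicate 2. It lay between 17.1 and 72.8 units over the heterozygous libraries. One read was worth 0.88 to 1.1 units at this stage, so replicates a and b held a few reads of INPP5D at most. Replicate a may have been at the floor, and its percentage would then be an upper limit. In that case replicate b would stand at 1.05 units, and 1 read was worth 1.0539 units there. The median of the INPP5D row lay between homozygous replicate 2 and heterozygous replicate 1. These limits therefore do not settle whether it reached the 16 units asked of tested rows. KLHL4 lay between 1 and 16 units in homozygous replicate 2, and shank3b between 1 and 12.1 units in homozygous replicate b. Heterozygous libraries were at 15.2 units or more for KLHL4 and 16.5 or more for shank3b. The order of these 3 genes at the 15-somite stage is therefore not fixed by the data, since their differences, -3.74 to -3.09, had SEs of 0.28 to 0.62.

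The enzyme gene pc (ENSDARG00000051939) was low at the 15-somite stage only. It encodes pyruvate carboxylase, the mitochondrial biotin enzyme that makes oxaloacetate from pyruvate and so feeds both the citric acid cycle and glucose synthesis. It stood at 23.4%, 20.3% and 10.8% in homozygous replicates 2, a and b, and at 60.8%, 129.5% and 127% in heterozygous replicates 1, 2 and 3. Homozygous replicate b and heterozygous replicate 1 were each the lowest of their group, and the difference was -2.53 (SE 0.37). At 24 hpf pc stood at 249.7%, 122.4% and 54.4% in homozygous replicates 1, 2 and 3, and at 139.3%, 66.2% and 108.4% in heterozygous replicates. All heterozygous libraries lay inside the homozygous range, and homozygous libraries covered 2.20 on the log2 scale, the widest spread of the 8 genes at that stage. The difference was 0.24 (SE 0.53), and it lay between -0.29 and 0.81 as each library was left out.

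The kinase gene plk2b (ENSDARG00000019130) was lower by a moderate and even amount at the earlier stage. It encodes a polo-like kinase; the mammalian protein is known for roles in centriole duplication and in neuronal and stress responses. Its early libraries stood at 33.6%, 30.4% and 32.4% in homozygous replicates 2, a and b, and at 89.7%, 117.2% and 95.1% in heterozygous replicates 1, 2 and 3. The homozygous libraries differed by only 0.15 on the log2 scale, the smallest range of the 8 genes at this stage, and the difference was -1.64 (SE 0.11). At 24 hpf plk2b stood at 51.6%, 62.7% and 61.5% in homozygous replicates and at 90.6%, 105.1% and 105.0% in heterozygous replicates. The groups remained separate, with a difference of -0.78 (SE 0.16).

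The last 3 genes had nearly the same difference at both stages. The gene micall2a (ENSDARG00000052694) encodes a MICAL-like protein; in mammalian epithelial cells MICALL2 binds Rab GTPases and takes part in the traffic of junction proteins. At the 15-somite stage it stood at 28.9%, 28.9% and 24.2% in homozygous replicates 2, a and b, and at 101.2%, 84.2% and 117.3% in heterozygous replicates 1, 2 and 3. At 24 hpf it stood at 31.8%, 32.0% and 18.7% in homozygous replicates and at 102.5%, 87.4% and 111.7% in heterozygous replicates. The groups were far apart at both stages, and homozygous replicate 3 at 24 hpf was the lowest library. The difference was -1.88 (SE 0.19) at the earlier stage and -1.90 (SE 0.24) at the later, the largest of the 8 genes there.

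The gene ccdc88b (ENSDARG00000076189) encodes a coiled-coil protein of the Girdin and Hook-related family; in mice and humans CCDC88B is known from immune cells. Early libraries stood at 26.4%, 40.6% and 36.8% in homozygous replicates 2, a and b, and at 110.2%, 105.0% and 86.4% in heterozygous replicates 1, 2 and 3. At 24 hpf it stood at 36.9%, 38.3% and 40.1% in homozygous replicates and at 115.3%, 101.5% and 85.4% in heterozygous replicates. The groups were separate by 1.09 on the log2 scale at each stage, and the homozygous libraries at 24 hpf differed by only 0.12. The difference was -1.56 (SE 0.22) early and -1.38 (SE 0.17) late.

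The gene f13a1b (ENSDARG00000036893) encodes a catalytic A subunit of coagulation factor XIII, the transglutaminase that cross-links fibrin in a clot. In mammals this subunit is made by macrophages and platelets. The early libraries stood at 51.5%, 42.0% and 38.2% in homozygous replicates 2, a and b, and at 106.7%, 87.7% and 106.9% in heterozygous replicates 1, 2 and 3. At 24 hpf it stood at 46.6%, 53.9% and 46.7% in homozygous replicates and at 103.7%, 101.6% and 95.0% in heterozygous replicates. The homozygous geometric mean was 43.6% at the 15-somite stage and 49.0% at the later one, with little spread. The differences were -1.20 (SE 0.13) and -1.03 (SE 0.07), the smallest SE of the 8 genes at 24 hpf.

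**Figure D2:**
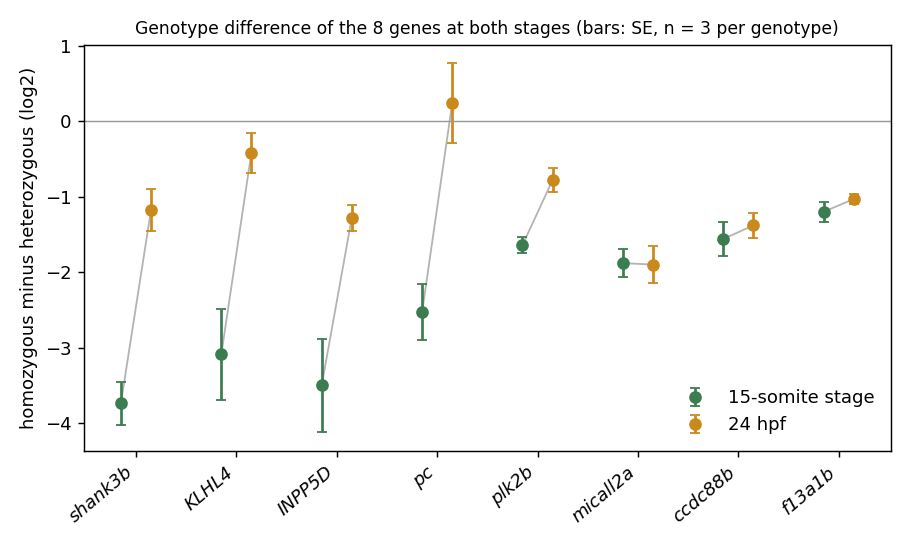
Homozygous minus heterozygous difference on the log2 scale (y axis) for each of the 8 genes (x axis), at the 15-somite stage (green, left) and at 24 hpf (yellow, right), with SE bars and n = 3 libraries per genotype. Lines join the stages of 1 gene: shank3b, KLHL4, INPP5D and pc move up by 2.22 to 2.78, whereas micall2a, ccdc88b and f13a1b stay within 0.17.

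Set side by side, the genotype difference at 24 hpf minus that at the 15-somite stage was 2.78 (SE 0.72) for pc, 2.67 (SE 0.71) for KLHL4, 2.57 (SE 0.42) for shank3b and 2.22 (SE 0.70) for INPP5D. It was 0.86 (SE 0.21) for plk2b. It was 0.17 (SE 0.26) for ccdc88b, 0.17 (SE 0.15) for f13a1b and -0.03 (SE 0.31) for micall2a, each close to its SE or below it. For etv2 itself it was -0.32 (SE 0.27). A difference between stages was called in 3.91% of the 17456 rows tested at both. The values of the 8 genes are made from the comparisons that chose the genes and carry no test. Each stage was normalized on its own and raised at its own temperature, so a stage effect on the level itself cannot be read from the tables.

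The 8 genes were then set beside their relatives, which the choice of the genes did not use. The lists of relatives were drawn up with earlier results of these data known. Over 8 lists of relatives and pathway partners, 165 rows were tested at the 15-somite stage. Of these, 12 fell (7.27%, against 3.86% of all rows tested) and 2 rose (1.21%, against 0.98% of all rows), with a median difference of -0.04. Without single libraries 1 to 8 relatives were called in place of 14, the fewest without heterozygous replicate 2. With replicate numbers as a block 5 or 12 were called, depending on which homozygous library is paired with number 1. By unadjusted limma p (under 0.05), 35 of the 165 rows were lower and 13 higher, against 12.2% and 9.78% of all rows. At 24 hpf limma called 0 of 172 rows, where it called 0.318% of all rows. By unadjusted p, 9 were lower and 4 higher there, against 3.92% and 3.15% of all rows. The falls at the earlier stage were not spread over all families: 5 were in the list around pc, 5 in the list around f13a1b, 1 was plk2a and 1 was ehd1a.

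**Figure D3:**
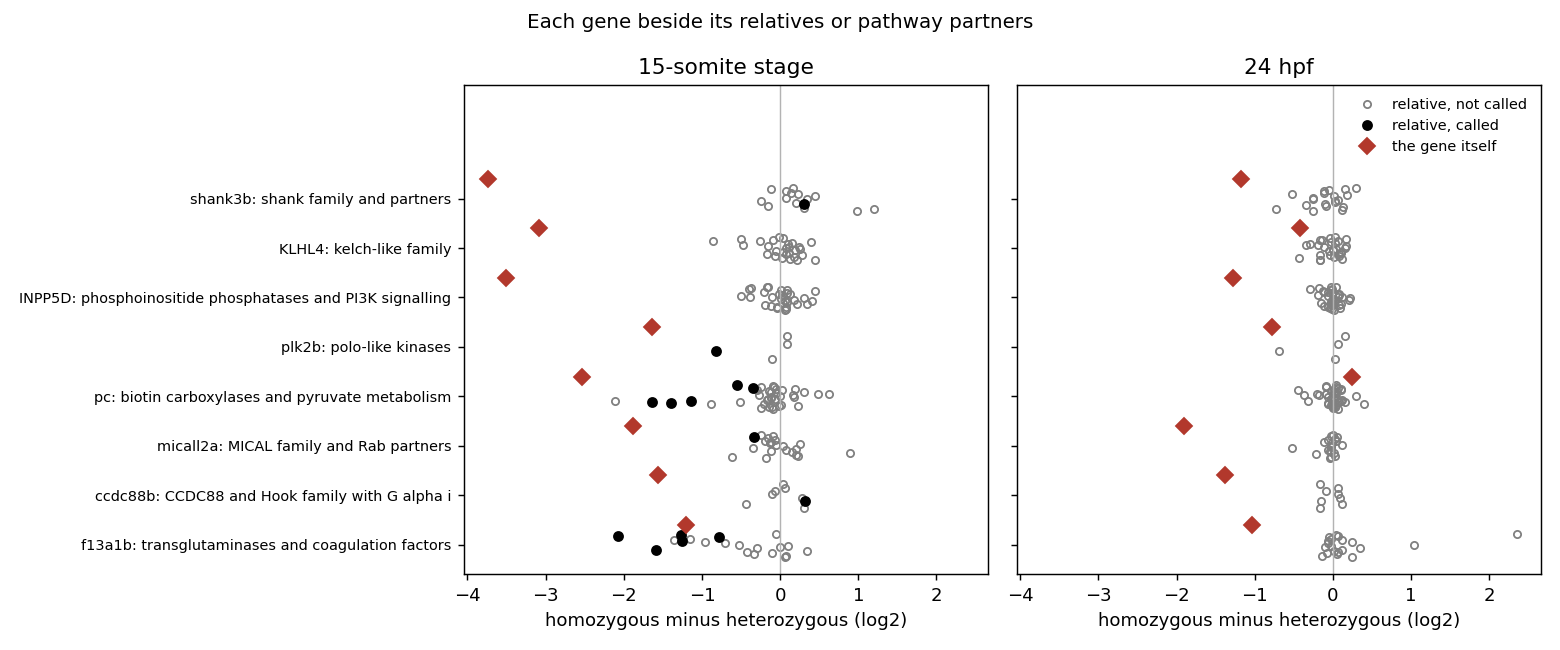
Homozygous minus heterozygous difference on the log2 scale (x axis) of each gene (red diamond, with no test) and of the tested rows of its list of relatives (circles, filled where called by limma at adjusted p below 0.05), at the 15-somite stage (left panel) and 24 hpf (right panel); 1 list per row. Most relatives of shank3b, KLHL4 and INPP5D lie near 0, whereas several called relatives of pc and f13a1b lie below -1 at the 15-somite stage only.

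In the list of Shank proteins and their postsynaptic partners, 1 of 15 rows rose and 0 fell by limma at the 15-somite stage (by unadjusted p, 4 higher and 1 lower), and the median was 0.20. The riser was homer3, which encodes a partner of Shank proteins (0.30, SE 0.06, adjusted p = 0.0321 by limma; adjusted p 0.0470 to 0.122 as each library was left out, passing without 1 library only). The widest differences of the list were those of the SHANK2 copies, above 0 where shank3b was below it. They were 1.2 for shank2 (SE 0.27, limma adjusted p = 0.0516) and 0.98 for SHANK2 (2 of 2) (SE 0.25, adjusted p = 0.0668), neither called at this stage; at 24 hpf shank2 stood at -0.73 (SE 0.26, adjusted p = 0.648). The closest relative by name, shank3a, was tested only at 24 hpf and stood at 0.13 (SE 0.17, limma adjusted p = 0.923). Of 28 kelch-like family rows limma called 0 at the 15-somite stage (by unadjusted p, 2 higher and 1 lower), with a median of 0.08. The near relative klhl5, tested at 24 hpf, stood at 0.11 (SE 0.28, limma adjusted p = 0.967).

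Around INPP5D, limma called 0 of 31 rows of phosphoinositide phosphatases and PI3 kinase signalling at the 15-somite stage (by unadjusted p, 5 lower and 0 higher), with a median of 0.03. Its closest relatives encode the related phosphatase SHIP2. They stood at 0.06 (inppl1a, SE 0.09, limma adjusted p = 0.732) and 0.08 (inppl1b, SE 0.20, limma adjusted p = 0.857) at the 15-somite stage. At 24 hpf they stood at 0.01 (SE 0.07) and -0.01 (SE 0.20). INPP5D itself was at -3.50 and -1.28.

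Among the polo-like kinases, plk2a, the other zebrafish copy of PLK2, fell at the 15-somite stage. It stood at 64.3%, 53.7% and 53.1% in homozygous replicates 2, a and b, and at 95.9%, 93.9% and 111.1% in heterozygous replicates. The difference was -0.82 (SE 0.18, limma adjusted p = 0.0438), against -1.64 for plk2b, and it did not pass as any 1 library was left out (adjusted p 0.0732 to 0.146). At 24 hpf plk2a stood at 52.3%, 60.9% and 75.3% in homozygous replicates and at 89.9%, 116.7% and 95.3% in heterozygous replicates, a difference of -0.69 (SE 0.20, limma adjusted p = 0.488). The groups of plk2a did not overlap at either stage. Its relative plk3 stood at 0.09 (SE 0.06, limma adjusted p = 0.433) at the earlier stage and 0.06 (SE 0.05, adjusted p = 0.871) at the later.

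Around pc, 5 of 38 rows of biotin carboxylases and pyruvate metabolism fell at the 15-somite stage and 0 rose. Of all rows tested, 3.86% fell. By unadjusted p, 10 rows of the list were lower and 3 higher. The 3 include dld, a Notch ligand gene that entered the list only through a shared alias with dldh. It stood at 0.18 (SE 0.07, limma adjusted p = 0.193) and is not a gene of pyruvate metabolism. Among the 5 called, fbp1b, pck2 and g6pca.2 encode enzymes of glucose synthesis that act after pyruvate carboxylase. The fructose bisphosphatase gene fbp1b stood at 42.1%, 37.4% and 21.1% in homozygous replicates 2, a and b, and at 84.7%, 109.1% and 108.3% in heterozygous replicates 1, 2 and 3. As for pc, homozygous replicate b and heterozygous replicate 1 were the lowest of their groups. The same held outside this list for f2, fgg and fgb, but not for serpinc1 and f9b, all from the list around f13a1b. The difference of fbp1b was -1.64 (SE 0.25, limma adjusted p = 0.0156). The phosphoenolpyruvate carboxykinase gene pck2 fell by 1.39 on the log2 scale (SE 0.28, limma adjusted p = 0.0363). The glucose 6-phosphatase gene g6pca.2 fell by 1.14 (SE 0.19, limma adjusted p = 0.0191). The widest difference of the list was that of g6pca.1, at -2.11 (SE 0.48, limma adjusted p = 0.0506). It was not called, and at 24 hpf it was below the level tested.

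The remaining called falls in that list were smaller. The lactate dehydrogenase gene ldhba fell by 0.55 (SE 0.07, limma adjusted p = 0.0118) and the transaminase gene got2b fell by 0.35 (SE 0.07, limma adjusted p = 0.0392). As each library was left out, the adjusted p of these 5 genes reached 0.114 (pck2), 0.0709 (fbp1b), 0.0803 (g6pca.2), 0.136 (got2b) and 0.0555 (ldhba). At 24 hpf limma called 0 of 38 rows of the list (by unadjusted p, 1 higher and 0 lower), with fbp1b at 0.15, pck2 at -0.07 and g6pca.2 at 0.10. There pc was at 0.24.

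Around f13a1b, 5 of 20 rows of transglutaminases and coagulation factors fell at the 15-somite stage and 0 rose, and the list's median was -0.47. By unadjusted p, 11 rows of the list were lower and 0 higher. All 5 called genes encode proteins of plasma that the liver makes in adults, rather than transglutaminases. The prothrombin gene f2 fell by 1.59 (SE 0.18, limma adjusted p = 0.00781) and passed as each library was left out. The fibrinogen chain genes fgg and fgb fell by 2.07 (SE 0.35, limma adjusted p = 0.0207) and 0.78 (SE 0.14, adjusted p = 0.0263), the antithrombin gene serpinc1 fell by 1.27 (SE 0.20, adjusted p = 0.0166) and f9b fell by 1.26 (SE 0.23, adjusted p = 0.0240). Left-out libraries took the adjusted p to 0.0804 for fgg, 0.0932 for fgb, 0.0744 for serpinc1 and 0.0755 for f9b.

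At 24 hpf limma called 0 of 20 rows of that list (by unadjusted p, 2 higher and 1 lower). There f2 stood at 0.12 and fgg at -0.05, whereas f13a1b stood at -1.03. The widest differences of the list at 24 hpf were above 0, and neither was called. They were 2.35 for vwf (SE 0.37, limma adjusted p = 0.0683) and 1.04 for F7 (2 of 3) (SE 0.21, adjusted p = 0.179). At the 15-somite stage vwf was below the level tested. The gene f2 stood at 120.7%, 115.9% and 91.3% in homozygous replicates and at 121.6%, 86.9% and 94.6% in heterozygous replicates, with the groups overlapping. The other factor XIII subunit rows, f13a1a.1 and F13A1 (2 of 3), lay below the level tested.

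In the list of MICAL proteins and Rab partners, 1 of 21 rows fell at the 15-somite stage and 0 rose (by unadjusted p, 6 lower and 2 higher): ehd1a, of an endocytic recycling protein (-0.34, SE 0.06, limma adjusted p = 0.0292; 0.0527 to 0.113 as each library was left out). The widest differences there, neither called by limma, were 0.89 for MICALL1 (3 of 3) (SE 0.49, adjusted p = 0.340) and -0.62 for mical2b (SE 0.22, adjusted p = 0.152). At 24 hpf the widest was -0.53 for rab8b (SE 0.11, limma adjusted p = 0.227). At the 15-somite stage rab8b stood at -0.35 (SE 0.12, adjusted p = 0.149), and it was called at neither stage. The other MICALL2 copy, micall2b, stood at -0.12 (SE 0.10, limma adjusted p = 0.521) at the 15-somite stage and -0.03 (SE 0.09, adjusted p = 0.975) at 24 hpf, against -1.88 and -1.90 for micall2a. In the list of CCDC88 and Hook proteins with G alpha i subunits, 1 of 8 rows rose and 0 fell (by unadjusted p, 2 higher and 0 lower): HOOK2 (2 of 2), at 0.32 (SE 0.06, limma adjusted p = 0.0370; 0.0557 to 0.126 as each library was left out). CCDC88C stood at 0.31 (SE 0.07, limma adjusted p = 0.0569) at the 15-somite stage and -0.16 (SE 0.05, adjusted p = 0.622) at 24 hpf.

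The genes with the most similar profile were looked up for each of the 8. The measure was the root mean square (RMS) difference over the 12 libraries, each relative to the heterozygous mean of its stage, among 14467 named rows tested at both stages. It is a description, and all profiles share the same libraries. Each profile was picked for closeness over these values, so likeness in its differences and low libraries follows from that choice. The RMS of rows not picked is not given. For shank3b the nearest were RASIP1, a gene of vessel lumen formation (RMS 0.43), and the scavenger receptor gene scarf1 (0.47). RASIP1 stood at 4.5%, 7.48% and 4.62% in homozygous replicates 2, a and b and its differences were -4.22 and -1.59, against -3.74 and -1.18 for shank3b.

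For KLHL4 the nearest were SOD3 (3 of 3), an extracellular superoxide dismutase gene (0.57), and ecscr, an endothelial surface protein gene (0.60). For INPP5D they were sox7, a transcription factor gene of early endothelium (0.63), and the interleukin receptor gene il6r (0.66). The matches of KLHL4 and INPP5D were looser than those of the other genes. Their homozygous libraries also had the widest spread of the 8 genes at the 15-somite stage (SD 1.34 and 1.41). A link between this spread and the looser matches was not tested. For plk2b the nearest were tpd52l1 (0.26) and the VEGF receptor gene kdrl (0.27). For micall2a they were the VEGF receptor gene flt4 (0.29) and the ETS factor gene fli1b (0.31).

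For ccdc88b the nearest were kdrl and the collagen gene col8a2 (0.26 each), and for f13a1b yrk (0.14) and kdrl (0.18). The differences of kdrl were -1.41 and -1.11, close to -1.20 and -1.03 for f13a1b. No endothelial gene was among the nearest of pc, which were cideb, a lipid droplet protein gene (0.30), and fabp1b.1, a fatty acid binding protein gene (0.39). At the 15-somite stage cideb stood at 27.0%, 26.7% and 11.8% in homozygous replicates 2, a and b and at 66.5%, 135.2% and 111.3% in heterozygous replicates 1, 2 and 3. Its low points, homozygous replicate b and heterozygous replicate 1, are those of pc, which the choice by closeness favours. At 24 hpf the difference was 0.26 for cideb, 0.22 for fabp1b.1 and 0.24 for pc. Among the 8 genes themselves, f13a1b lay nearest to plk2b (RMS 0.32) and to ccdc88b (0.36), and micall2a to ccdc88b (0.45). The nearest of the 8 to shank3b was KLHL4 (0.68), to INPP5D it was shank3b (0.72), and pc stood farthest, with KLHL4 as its nearest at 0.89.

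**Figure D4:**
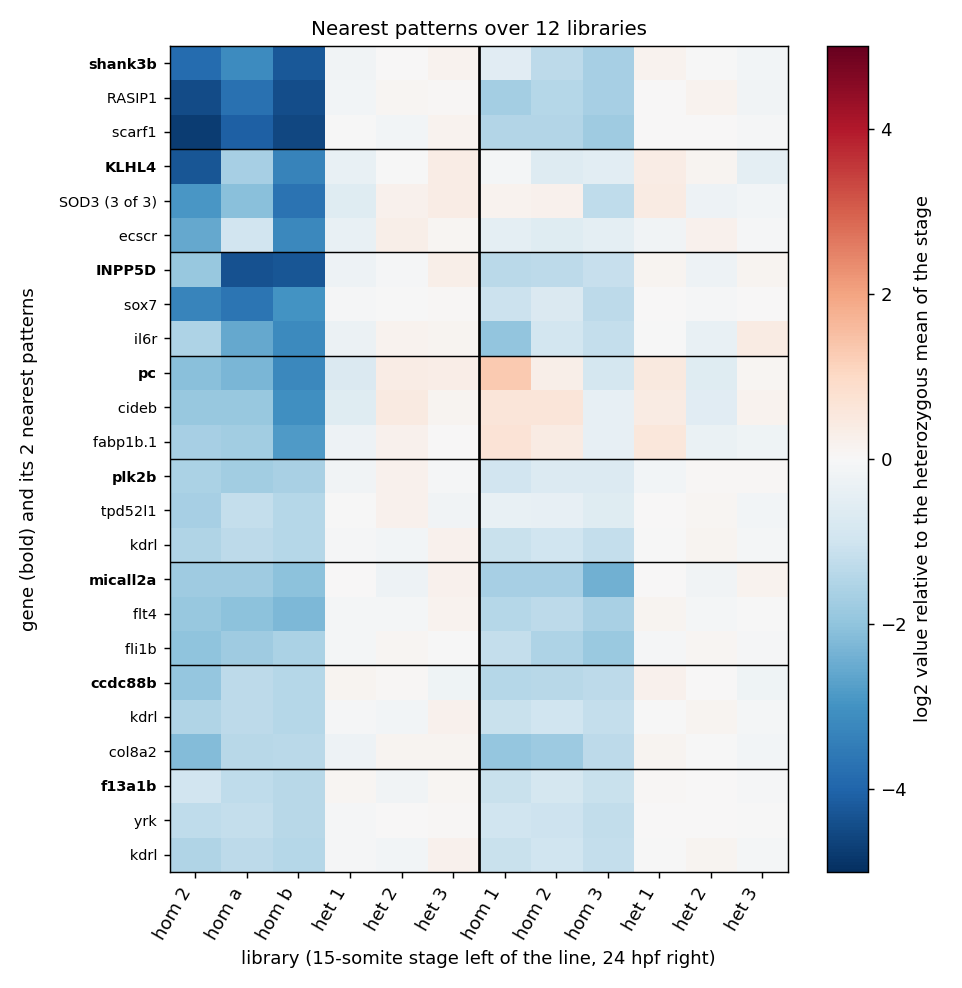
Colour shows the log2 value relative to the heterozygous mean of the stage (blue lower, red higher, scale from -5 to 5) in each of the 12 libraries (columns, homozygous left of heterozygous within a stage, 15-somite stage left of the line) for each of the 8 genes (bold) and its 2 nearest profiles (rows). The rows around pc are blue in the homozygous libraries at the 15-somite stage and mixed at 24 hpf, whereas the rows around micall2a, ccdc88b and f13a1b are blue in homozygous libraries at both stages.

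Markers of some cell types in the whole embryo were lower in homozygotes as well, and those of others were not. All 14 endothelial markers fell at the 15-somite stage (median -2.61) and 11 of 14 at 24 hpf (median -1.57), by limma at adjusted p below 0.05. Of all rows tested, 3.86% fell at the 15-somite stage and 0.302% at 24 hpf. The mean log2 value of the endothelial markers was -3.33 to -2.82 in homozygous libraries and -0.08 to 0.11 in heterozygous libraries at the 15-somite stage. At 24 hpf it was -1.78 to -1.60 and -0.07 to 0.05. Of macrophage and neutrophil markers, 2 of 7 rows tested fell at the 15-somite stage (median -0.96) and 5 of 12 at 24 hpf (median -2.10). By unadjusted p, 6 of these markers were lower and 0 higher at the earlier stage, and 11 lower and 0 higher at the later. Their mean lay between -1.07 and -0.85 in homozygous libraries and between -0.32 and 0.20 in heterozygous libraries at the earlier stage, and between -2.82 and -2.18, and -0.08 and 0.12, at the later. Among macrophage genes at 24 hpf, mfap4 fell (-4.98, SE 0.57, limma adjusted p = 0.0155), as did MFAP4 (13 of 13) (-4.02, SE 0.59, adjusted p = 0.0482), whereas csf1ra stood at -0.05 (SE 0.16, adjusted p = 0.973). The rows of mpeg1 and marco were below the level tested at both stages.

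At the 15-somite stage, 5 of 5 hatching gland markers (median -0.87) and 7 of 10 epidermis markers (median -0.35) fell too. At 24 hpf limma called 0 of either list (by unadjusted p, 1 lower and 1 higher, both epidermal), with medians of 0.03 and 0.07. Red cell, muscle, nerve and thrombocyte markers had medians between -0.11 and 0.12 at that earlier stage, with 1 of 11 red cell rows lower. By unadjusted p, 4 red cell rows were higher and 1 lower, and 2 nerve rows were higher and 0 lower. Only 2 of 6 thrombocyte rows were tested at each stage, so their median says little about thrombocytes. At 24 hpf the red cell median was 0.48, with 0 of 11 rows called by limma (9 higher and 0 lower by unadjusted p). The part of these markers' cell types in the differences of the 8 genes was not tested.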

How the data were processed

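RNA of whole embryo batches was sequenced, 12 libraries in all. The authors deposited 1 table of log2 values per stage. The submitters' processing notes list DESeq and the genome build Zv9. The aligner, counter and annotation were not given in the sources used here. From the values, the deposited log2 numbers had been floored at 1 and centred on each row's median over 6 libraries. Between 42.1% and 55.8% of low values were whole reads within 0.001 read, and a count test was therefore left out.

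The rounding of single-precision storage grows with a number's size, and it gave each row's level class and limits to library levels. Rows with libraries at the floor have known levels and broke 0 of these limits, which libraries at the floor could not break. Of these rows, 1477 of 1481 (15-somite stage) and 1256 of 1258 (24 hpf) lay below 16 units, so rows tested were hardly checked. Of those known to lie below 16, the rounding placed 0.95% and 1.67% at 16 or above. Rows placed at 16 normalized units or above were tested, 18168 and 18883 per stage. Python 3.11.15, R 4.3.3 and limma 3.58.1 were used, with the prior spread estimated per level class (lower or upper) and Benjamini-Hochberg adjustment over all rows of a stage, two-sided. P-values reflect how embryo batches varied within a genotype here. Columns were matched by name, and 2 columns share a homozygous name.

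The 8 genes and all lists were chosen with earlier results of these data known. Named relatives were those called at either stage, up to 4 per list by size of difference, and the nearest by name. Added after their values were seen were got2b, fgb, shank2, SHANK2 (2 of 2), KLHL2, F7 (2 of 3), mical2b, MICALL1 (3 of 3), rab8b, dld and the macrophage genes. Named profiles were the 2 nearest of each gene. The alternatives are given in the closing section. Promoter sequences and motifs were not used here.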

Additional observations from a re-analysis of the deposited data

Results flagged for a closer look

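For 14 of the relatives the genotype difference itself differed between the stages (limma interaction over 17456 rows, adjusted p below 0.05, where 3.91% of rows passed). At most 165 relatives were tested at both stages. Over all rows such calls numbered 683, and 227 to 725 without single libraries. For single relatives the left-out fits are not given here. Values are the difference at 24 hpf minus that at the 15-somite stage on the log2 scale. Around pc they were 1.78 for fbp1b (SE 0.33, adjusted p = 0.0160), 1.33 for pck2 (SE 0.32, adjusted p = 0.0419), 1.24 for g6pca.2 (SE 0.22, adjusted p = 0.0142), 0.60 for ldhba (SE 0.08, adjusted p = 0.00545) and 0.41 for got2b (SE 0.08, adjusted p = 0.0226). Around f13a1b they were 2.02 for fgg (SE 0.47, adjusted p = 0.0358), 1.71 for f2 (SE 0.25, adjusted p = 0.00590), 1.56 for F7 (2 of 3) (SE 0.39, adjusted p = 0.0458) and 1.35 for serpinc1 (SE 0.25, adjusted p = 0.0167). The value was -1.93 for shank2 (SE 0.42, adjusted p = 0.0274), whose difference was above 0 early and below 0 late, and -0.38 for KLHL2 (SE 0.08, adjusted p = 0.0298). The others were 0.38 for ehd1a (SE 0.08, adjusted p = 0.0238), -0.46 for CCDC88C (SE 0.08, adjusted p = 0.0147) and -0.47 for HOOK2 (2 of 2) (SE 0.09, adjusted p = 0.0178).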

How the results depend on the processing

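Quantile normalization gave the 8 genes differences of -3.22 (shank3b, -3.74 without it) to -1.12 early and -1.82 to 0.27 late; the filters, priors and blocks leave a difference as it is. As libraries were left out, 4 to 7 of the 8 passed the call at the 15-somite stage and 1 or 2 of 8 at 24 hpf, where 8 and 4 passed with all libraries. With 1 prior spread for all rows, 5 and 3 passed.

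Over all rows, 879 were called at the 15-somite stage, 310 with 1 prior spread and 1884 with all 12 libraries in 1 fit (1195 lower and 689 higher, against 701 and 178). Called relatives numbered 14, then 4 and 28. At 24 hpf 60 rows were called, 31 with the upper level class only and 23 with the replicate block. Calls of a difference between stages numbered 683, and 276 with 1 prior spread. Without single libraries the counts were 162 (without heterozygous replicate 2) to 704 (15-somite stage), 26 to 58 (24 hpf), 227 to 725 (between stages) and 1 to 8 relatives at the 15-somite stage, and 0 at 24 hpf. The causes were not tested.

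Same-numbered 24 hpf libraries had correlations of 0.175, 0.080 and 0.014 in their deviations from group means. Pairs with unlike numbers lay between -0.21 and 0.152. Whether libraries of the same number share a batch cannot be told from these values. Of the 8 genes 1, f13a1b, passed with the block at 24 hpf. The promoter motif description was not run. At the 15-somite stage the pairing of homozygous a and b is not known, and both were fitted, chosen after seeing the data. The replicate block called 290 rows, 5 relatives and 7 of the 8 genes with a as number 1, and 770, 12 and 8 with b as number 1. Values near the floor, shown for INPP5D and possible for KLHL4 and shank3b, limit the size of their differences.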
